A study of Rattus norvegicus with 4 samples.

Results

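The genes described here encode the nuclear-encoded subunits of the mitochondrial respiratory chain and of ATP synthase, together with complex I assembly factors, in rat soleus, the slow-twitch muscle of the calf that holds posture. They were chosen by name: every gene whose symbol starts with Nduf, Uqcr, Atp5 or Cox4 to Cox8, with Sdha, Sdhb, Sdhc, Sdhd and Cyc1. Of the 119 protein-coding genes that fit this rule in the reference gene table, 85 were matched to a probe, as was 1 pseudogene, Cox6c-ps1. These 86 genes stand among 26633 genes and transcripts on the array. All but 1, 85 genes, were well above background on all 4 arrays, as were 14862 genes and transcripts in all. The exception was Cox8c, a complex IV isoform known from testis, which was above background on none of the 4 arrays. Grouped by symbol, the 85 genes comprise 33 of complex I, 7 complex I assembly factors, 4 of complex II, 9 of complex III, 16 of complex IV and 16 of complex V. By this grouping Ndufa4 counts with complex I, Cox6c-ps1 and Cox7a2l with complex IV, and the inhibitor Atp5if1 with complex V.

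The respiratory chain passes electrons from NADH (complex I) and succinate (complex II) through complex III and cytochrome c to oxygen (complex IV), and pumps protons across the inner mitochondrial membrane. ATP synthase (complex V) lets the protons flow back and makes ATP. Soleus consists mostly of slow, oxidative fibres that are rich in mitochondria, and several subunits of complex IV exist there in a heart and muscle isoform beside a widely expressed one. Subunits encoded by mitochondrial DNA are not among the genes selected.

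The study asked how muscle that had regenerated after injury responds to overload. Soleus muscles of male rats fell into 4 groups: regenerated overloaded muscle of rats aged 18 weeks, overloaded muscle of rats aged 18 weeks (labelled as hypertrophied), regenerated muscle of rats aged 16 weeks, taken 8 weeks after an injection named CTX, and normal muscle of rats aged 16 weeks. The labels give no strain, do not expand CTX, and do not say how or for how long the muscles were loaded. They give no time since injection for regenerated overloaded muscle, so it may differ from that of regenerated muscle. Equal amounts of RNA from the 6 muscles of a group were pooled on 1 array, so every group has n = 1, the spread between animals is unknown, and no difference below has a test or a p-value. Age went with overload, and so did the arrays' row on the slide, so that neither can be told apart from it. The letter at the end of the sample titles, L for both injured groups and R for both uninjured ones, went with injury; the labels do not say what it stands for, and whatever it marks cannot be told apart from injury.

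Levels are given as log2 of the processed signal after division by the array's 75th percentile over probe spots (scaled signal), and differences as the first-named group minus the second on the same log2 scale. The technical standard error (SE) beside a difference comes from repeated spots of a probe and covers neither animals nor arrays. A gene is read from its brightest probe unless other probes are named, and rankings and counts of genes rest on these probes. Between 60.4% and 70.6% of spots were well above background, least on the normal array, the 75th percentile lay between 662 and 817 intensity units, and no probe spot was saturated. At the genes' signals the SD between spots of a probe was 0.052 to 0.055. The normal array stood apart from the others: among 2055 other genes of like signal (with a mean log2 level between the 10th and the 90th percentile of the 85 genes), 82.9% were highest on the normal array. The medians of the set, and the values of some complexes and genes, are therefore also given relative to the median of these like-signal genes. All other differences are not adjusted in this way.

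Defining markers of muscle fibres were among the brighter genes. The 11 of 14 fibre markers measured summed to 1867 times the 75th percentile in regenerated overloaded muscle, 2023 in overloaded, 2111 in regenerated and 2594 in normal muscle. The array holds signal of other cells too. The summed signal of the 7 fibroblast markers above background was 397 in regenerated overloaded, 313 in overloaded, 237 in regenerated and 126 in normal muscle, and that of 9 macrophage markers was 51.5, 47.6, 40.6 and 26.1 in the same groups. That of 4 adipocyte markers was 27.7, 20.9, 29.9 and 16.3, higher in each injured group than in its uninjured counterpart, and that of 5 endothelial markers 11.2, 11.4, 10.9 and 10.5. Thy1, Lep and Tek, 1 marker each of fibroblasts, adipocytes and endothelium, were not above background on all 4 arrays. In RNA from whole muscle, fewer fibres and less RNA per fibre cannot be told apart, and the part of these cells in the results below was not tested.

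Respiratory chain and ATP synthase genes were slightly lower at the median in each of the 4 comparisons, and the median stayed below 0 under each scaling. The size of the difference from normal muscle, and the number of genes below 0 there, depended on the scaling. In regenerated against normal muscle the median difference of the 85 genes was -0.25, a 1.19-fold lower signal, and 85 of 85 were below 0, against 65.4% of all measured genes and 88.4% of like-signal genes. In overloaded against normal muscle the median was -0.34 (1.26-fold lower), with 84 of 85 below 0, against 63.9% of all and 89.1% of like-signal genes. In regenerated overloaded against regenerated muscle it was -0.19 (1.14-fold lower), with 78 of 85 below 0, against 55.4% of all and 63.6% of like-signal genes. In regenerated overloaded against overloaded muscle it was -0.10 (1.07-fold lower), with 79 of 85 below 0, against 53.6% of all and 40.9% of like-signal genes. Under quantile normalization the medians were -0.060, -0.077, -0.12 and -0.11 in this order, with 73, 67, 71 and 79 of 85 below 0. Under cyclic loess, the scaling with the smallest differences, they were -0.028, -0.035, -0.086 and -0.077, with 54, 55, 69 and 77 below 0.

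Much of the difference from normal muscle was shared by other genes of like signal. Their median was -0.19 in regenerated against normal muscle and -0.25 in overloaded against normal muscle, so that the 85 genes had medians of -0.064 and -0.088 relative to them. The comparisons that do not use the normal array gave the larger relative values. Relative to like-signal genes, whose own medians were -0.041 and 0.027, the median was -0.15 in regenerated overloaded against regenerated muscle and -0.13 in regenerated overloaded against overloaded muscle. Of the 85 genes, 76, 71, 76 and 80 lay below the like-signal median in the order of the 4 comparisons above, where 50% of the like-signal genes do by construction. By more than 2 technical SE, 23, 38, 53 and 54 lay below it, against 14.4%, 19.8%, 22% and 21.3% of the like-signal genes, and 1, 3, 4 and 1 lay above it, against 16.8%, 20.3%, 16.3% and 10.2%.

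No gene of the set differed by 2-fold or more, where in the order above 0.404%, 0.525%, 0.256% and 0.229% of all genes were lower and 1.06%, 2.17%, 0.774% and 0.35% higher by that fold. Only Ndufaf6, in regenerated against normal muscle, was lower by 1.5-fold or more, where 2.18% of all measured genes were, and none was higher by that much, against 5.55% of all genes. In the other 3 comparisons 0 of 85 passed 1.5-fold in either direction, while 3.28%, 1.75% and 1.2% of all genes were lower and 7.72%, 3.03% and 1.55% were higher by that fold. These counts rest on the brightest probe of each gene. A dimmer probe of Ndufv3, with 10 spots, was past 1.5-fold in both overload comparisons (-0.68 in each). So were the dimmer probes of Ndufaf4 in overloaded against normal muscle (-0.93 to -0.65). The levels themselves ranged from -0.98 to 8.37 in regenerated overloaded muscle and from -0.82 to 8.66 in normal muscle.

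The order of the arrays was much the same across the set. Regenerated overloaded muscle had the lowest signal for 74 of 85 genes, against 35.1% of like-signal genes, and normal muscle the highest for 84 of 85, against 82.9%. Under the other scalings tried, regenerated overloaded muscle stayed lowest for 64 to 79 genes (23.3% to 48.8% of like-signal genes), while the number highest in normal muscle went down to 43 under cyclic loess.

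**Figure D1:**
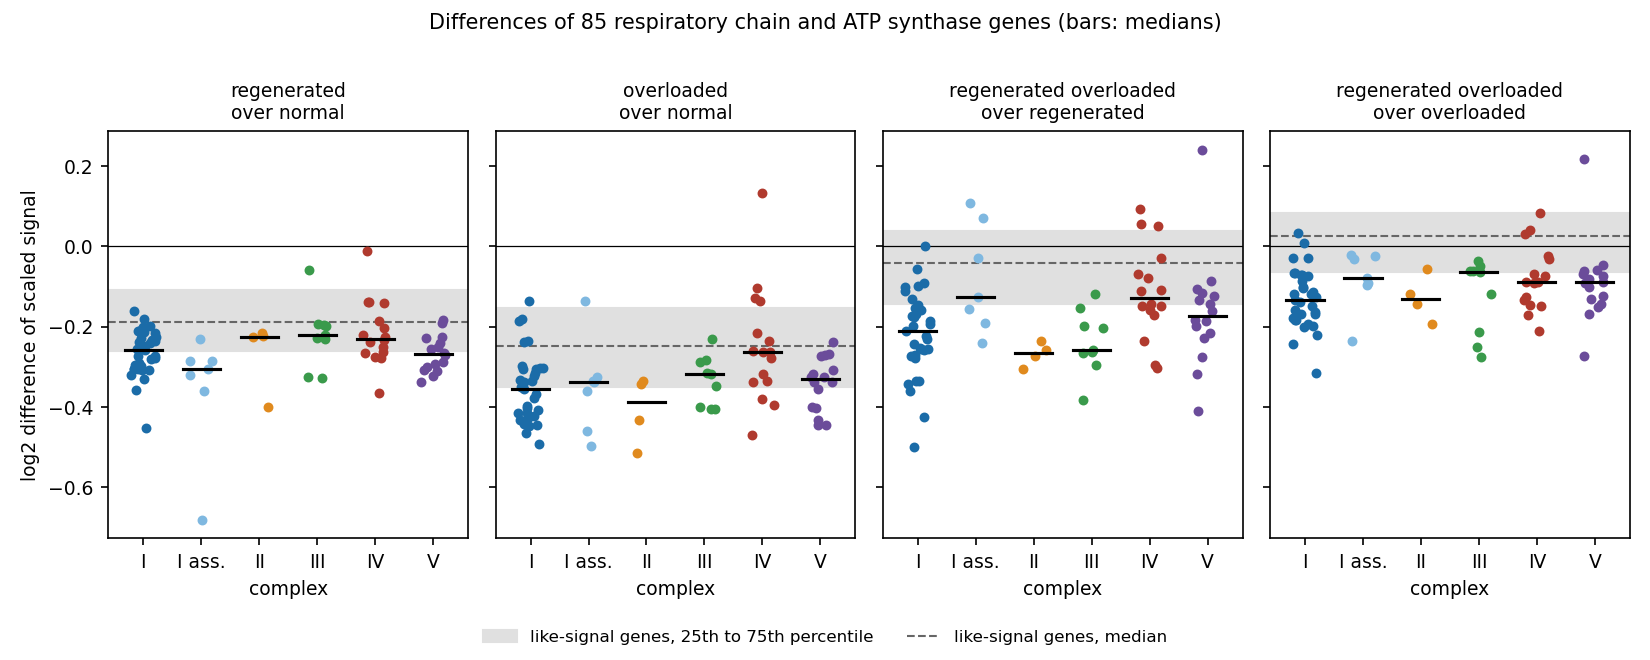
Log2 difference (vertical axis) of each of the 85 genes, by complex (horizontal axis; I ass., complex I assembly factors), in the 4 comparisons. Points are genes, black bars their medians, the dashed line and grey band the median and the 25th to 75th percentile of 2055 genes of like signal, and the complexes' medians lie below the dashed line in every panel. Most assembly factors were dimmer than these like-signal genes (mean log2 level 2.87 to 7.51), so the line is not matched to them in signal.

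Promoters of genes whose signals moved together or apart are shown because the regulators of this gene set are known from their binding letters. NRF1, GABP (an ETS factor), ERR, YY1 and SP1 are known to act at promoters of respiratory chain genes. RefSeq promoter windows of the GRCr8 build, 300 bases long and reaching from upstream of the gene start to just past it, were available for 73 of the 85 genes. The windows below are those of Ndufa10 and Atp5f1b (among the lowest in regenerated overloaded against regenerated muscle), Sdhb (lowest in overloaded against normal muscle), Atp5if1 (highest in both comparisons with regenerated overloaded muscle on top) and Ndufa6, which holds 4 of the 5 motifs. They lie at chr9:100489215-100489514 (minus strand), chr7:1099808-1100107 (plus), chr5:158547684-158547983 (plus), chr5:150026628-150026927 (minus) and chr7:115750268-115750567 (minus). Capitals mark matches to CGCNTGCGC (NRF1), CCGGAAG (ETS), AAGGTCA (ERR), AAGATGGC (YY1) and GGGCGG (SP1) on either strand. In this build the sequences read, 5′ to 3′ on the gene's strand:
Ndufa10: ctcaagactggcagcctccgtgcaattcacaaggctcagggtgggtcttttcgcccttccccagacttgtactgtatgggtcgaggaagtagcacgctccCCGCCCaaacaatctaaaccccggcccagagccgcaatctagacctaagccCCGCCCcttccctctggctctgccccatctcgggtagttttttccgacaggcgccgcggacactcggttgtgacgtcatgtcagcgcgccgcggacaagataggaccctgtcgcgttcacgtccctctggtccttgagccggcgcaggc
Atp5f1b: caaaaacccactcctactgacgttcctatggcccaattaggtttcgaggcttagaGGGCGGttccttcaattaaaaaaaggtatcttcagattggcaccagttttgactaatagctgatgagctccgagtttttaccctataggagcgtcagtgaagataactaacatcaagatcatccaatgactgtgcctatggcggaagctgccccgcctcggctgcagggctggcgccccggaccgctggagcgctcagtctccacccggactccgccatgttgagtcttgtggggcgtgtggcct
Sdhb: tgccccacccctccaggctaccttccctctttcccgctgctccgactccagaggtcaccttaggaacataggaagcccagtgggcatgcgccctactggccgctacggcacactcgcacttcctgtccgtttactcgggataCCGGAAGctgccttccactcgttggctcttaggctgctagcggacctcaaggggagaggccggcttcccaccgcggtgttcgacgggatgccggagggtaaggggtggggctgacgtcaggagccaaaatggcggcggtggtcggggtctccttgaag
Atp5if1: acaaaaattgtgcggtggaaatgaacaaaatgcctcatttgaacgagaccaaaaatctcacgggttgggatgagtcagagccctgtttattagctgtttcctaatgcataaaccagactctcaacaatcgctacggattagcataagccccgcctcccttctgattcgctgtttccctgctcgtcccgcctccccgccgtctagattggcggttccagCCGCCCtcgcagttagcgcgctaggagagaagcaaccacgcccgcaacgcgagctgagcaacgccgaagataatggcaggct
Ndufa6: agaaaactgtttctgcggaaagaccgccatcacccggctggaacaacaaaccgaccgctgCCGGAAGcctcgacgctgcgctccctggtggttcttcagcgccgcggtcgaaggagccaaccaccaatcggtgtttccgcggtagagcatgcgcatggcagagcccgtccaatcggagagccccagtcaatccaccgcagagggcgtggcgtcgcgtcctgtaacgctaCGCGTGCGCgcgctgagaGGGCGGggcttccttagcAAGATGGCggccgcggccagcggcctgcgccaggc

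Ndufa10, Atp5f1b and Atp5if1 hold only SP1 letters, 2 in the first and 1 in each of the others, although Atp5if1 differed in direction from both in the 2 comparisons with regenerated overloaded muscle on top. Sdhb holds 1 ETS match. Ndufa6, an accessory subunit with 1 match each to NRF1, ETS, YY1 and SP1, had -0.13 in regenerated overloaded against regenerated muscle, above the median of the set (-0.19).

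Across the set, the motifs were more frequent than in all promoters. NRF1 letters stood in 18 of 73 member promoters (24.7%), against 6.26% of 27457 promoters in the table and 13.1% of 7729 promoters of other genes measured on all 4 arrays. The shares were 31.5%, 9.22% and 18.1% for ETS, 12.3%, 4.37% and 2.87% for ERR, and 19.2%, 3.44% and 5.41% for YY1. SP1 letters were in 41.1% of member promoters, in 34.9% of all promoters and in 61.1% of those of other measured genes. No 2 different motifs overlapped in a member promoter. Genes with and without a motif differed little in response: in regenerated overloaded against regenerated muscle the median was -0.14 with and -0.20 without NRF1 letters, -0.16 and -0.20 for ETS, -0.14 and -0.20 for ERR, -0.16 and -0.19 for YY1, and -0.19 and -0.20 for SP1. A match describes letters in this window, and no binding was measured.

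Complex I, the NADH dehydrogenase, was among the complexes with the lower medians. Its 33 subunits had a median difference of -0.26 in regenerated and -0.36 in overloaded against normal muscle, and in regenerated overloaded muscle of -0.21 against regenerated and -0.13 against overloaded muscle. Relative to like-signal genes these medians were -0.07, -0.11, -0.17 and -0.16, with 31, 28, 32 and 32 of 33 below. The 7 nuclear-encoded core subunits, among them those that carry the flavin and the iron-sulphur clusters, had medians of -0.28, -0.37, -0.27 and -0.18 in the same order, and the 26 other subunits -0.25, -0.34, -0.18 and -0.12. All 7 core subunits lay more than 2 technical SE below the like-signal median in both comparisons with regenerated overloaded muscle on top. Among the 26 others, 19 did so against regenerated and 18 against overloaded muscle.

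Ndufs3, a core subunit read from 10 spots, had log2 levels of 4.54 in regenerated overloaded, 4.74 in overloaded, 4.88 in regenerated and 5.19 in normal muscle. Its differences were -0.34 ± 0.023 (technical SE) in regenerated overloaded against regenerated muscle and -0.20 ± 0.023 in regenerated overloaded against overloaded muscle. Ndufv1, which holds the flavin and the NADH site, read 5.56, 5.76, 5.90 and 6.11 in those groups. The arrays thus stood in one order for both genes, lowest in regenerated overloaded muscle. The core subunits Ndufs1, Ndufs7, Ndufs8 and Ndufv2 kept this order too, and their differences in regenerated overloaded against regenerated muscle lay between -0.34 and -0.26.

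On brightest probes, Ndufa10, an accessory subunit of the membrane arm, had the largest negative difference of the set in regenerated overloaded against regenerated muscle. Its level was 3.40 in regenerated overloaded, 3.65 in overloaded, 3.90 in regenerated and 4.14 in normal muscle. The difference was -0.50 ± 0.052 (technical SE), a 1.41-fold lower signal, and lay between -0.56 and -0.43 over the scalings. In overloaded against normal muscle it was -0.49 ± 0.053. Ndufa9, another accessory subunit, read from 1 spot, had -0.43 ± 0.073 and -0.45 ± 0.075 in those comparisons, and Ndufb10, a membrane arm subunit, -0.36 ± 0.052 and -0.38 ± 0.053. At the other end, Ndufa11, also of the membrane arm, had 0.034 ± 0.051 in regenerated overloaded against overloaded muscle. Ndufa4, named with complex I and since assigned to complex IV, had -0.15 ± 0.052 in regenerated overloaded against regenerated muscle.

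Ndufv3, an accessory subunit of the NADH-oxidising module known to occur in a short and a long splice form, gave different readings from probes named for the same transcript. The brightest, with 1 spot, read 5.40 in regenerated overloaded, 5.72 in overloaded, 5.40 in regenerated and 5.85 in normal muscle. A second probe with 1 spot showed the same order, with 4.79, 5.04, 4.79 and 5.11. The third, with 10 spots, read -0.37, -0.077, 0.31 and 0.60, so both overloaded groups were lowest on it. In regenerated overloaded against regenerated muscle the third gave -0.68 ± 0.030, against 0.0017 ± 0.073 and 0.003 ± 0.073 from the other probes. In overloaded against normal muscle it gave -0.68 ± 0.027, against -0.13 ± 0.075 (0.15 under cyclic loess) and -0.074 ± 0.075. All 3 probes were lower in regenerated against normal muscle (-0.45, -0.32 and -0.29, brightest first) and in regenerated overloaded against overloaded muscle (-0.32, -0.25 and -0.29). Which form each probe detects is not given by the files.

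The 7 complex I assembly factors, proteins that build the complex and are not part of it, had medians of -0.30, -0.34, -0.13 and -0.080 in the same 4 comparisons. Ndufaf6, which acts early in assembly, had the largest difference from normal muscle of all 85 genes on brightest probes. Its level was 2.23 in regenerated overloaded, 2.46 in overloaded, 2.12 in regenerated and 2.80 in normal muscle. Regenerated against normal muscle differed by -0.68 ± 0.056 (1.60-fold lower), and by -0.77 to -0.53 over the scalings. It was 1 of 7 genes lowest in regenerated rather than regenerated overloaded muscle. Ndufaf4 was lower in overloaded against normal muscle on all 4 of its probes, which are named for 1 transcript, with -0.50 ± 0.057 on the brightest and -0.93 to -0.65 on the dimmer ones. Ndufaf3, which works with Ndufaf4, had -0.46 ± 0.054 there. Ndufaf7 was dim, with levels between -1.05 and -0.82, and its 2 probes disagreed in sign in overloaded against normal muscle (-0.14 and 0.21).

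**Figure D2:**
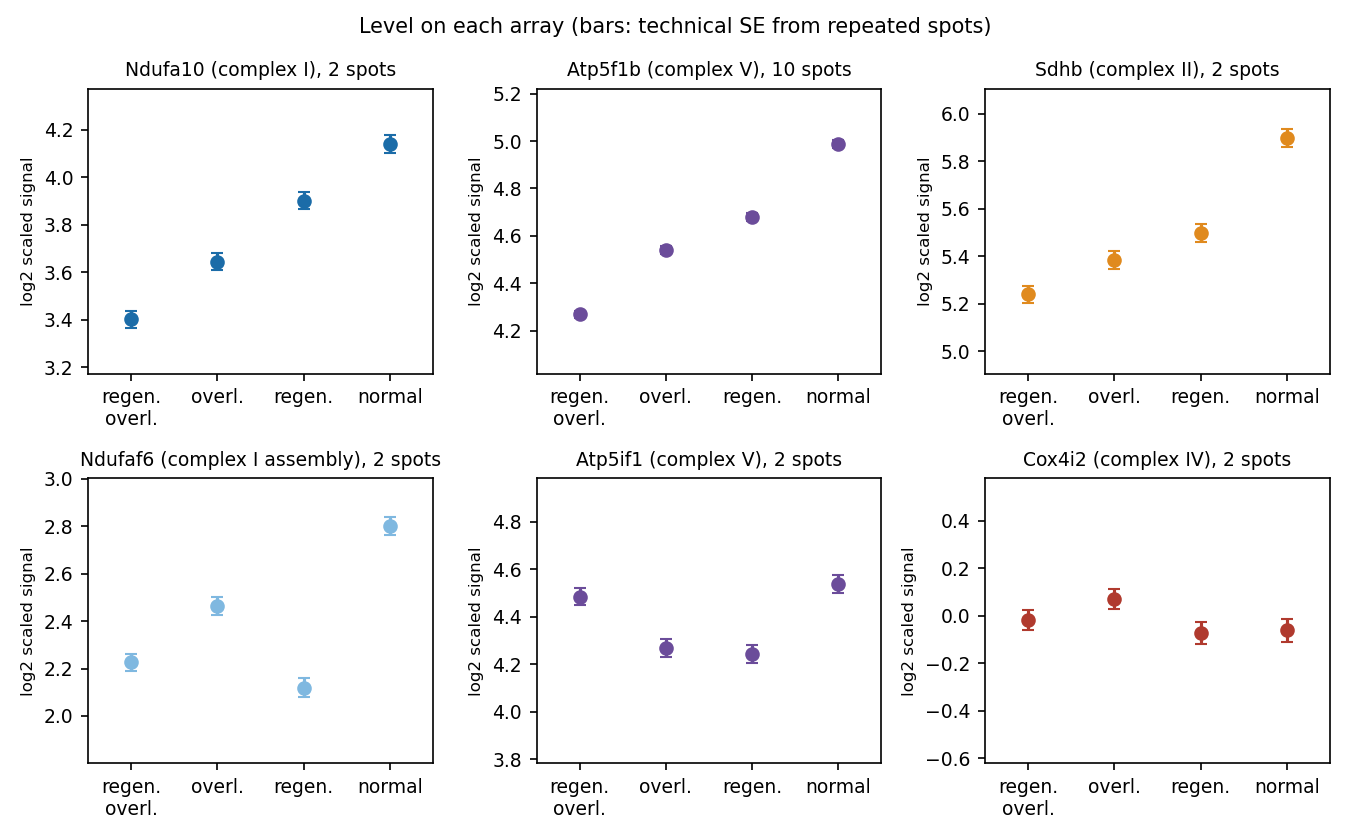
Log2 scaled signal (vertical axis, the same span in every panel) of 6 genes on the regenerated overloaded, overloaded, regenerated and normal arrays (horizontal axis, left to right), with 1 array per group. Points are the mean of the spots and bars the technical SE; Ndufa10, Atp5f1b and Sdhb are lowest in regenerated overloaded muscle, Ndufaf6 in regenerated muscle, Atp5if1 is near its normal level in regenerated overloaded muscle, and Cox4i2 varies little.

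All 4 subunits of complex II, succinate dehydrogenase, which also belongs to the TCA cycle, were lower in every comparison, under each scaling. Without spots in the outer rows, Sdhc had 0.0079 in regenerated overloaded against overloaded muscle, where the main value was -0.057. Their medians were -0.22, -0.39, -0.27 and -0.13. Sdhb, the iron-sulphur subunit, read 5.24 in regenerated overloaded, 5.38 in overloaded, 5.50 in regenerated and 5.90 in normal muscle. Its difference in overloaded against normal muscle was -0.51 ± 0.053 (1.43-fold lower), the largest negative one of the set on brightest probes. Dimmer probes of Ndufv3 (-0.68) and Ndufaf4 (-0.93 to -0.65) read lower there. In regenerated against normal muscle Sdhb had -0.40 ± 0.053. Relative to like-signal genes the 2 differences of Sdhb were -0.27 and -0.21. Sdha, the flavoprotein, had -0.33 and -0.22 in the same 2 comparisons, and Sdhc and Sdhd, the membrane anchors, -0.43 and -0.21, and -0.34 and -0.23. In regenerated overloaded against regenerated muscle the 4 were alike, between -0.31 and -0.24, and all were more than 2 technical SE below the like-signal median.

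Complex III, which hands electrons to cytochrome c, had medians of -0.22, -0.32, -0.26 and -0.064 over 9 genes; the first was 0.0078 under cyclic loess. The catalytic subunits Uqcrfs1, the Rieske iron-sulphur protein, and Cyc1, cytochrome c1, differed in pattern. Uqcrfs1 read 5.14 in regenerated overloaded, 5.42 in overloaded, 5.41 in regenerated and 5.73 in normal muscle, so that overloaded and regenerated muscle were level and regenerated overloaded muscle lowest. Cyc1 read 6.57, 6.63, 6.83 and 7.03, with both overloaded groups lowest. In regenerated overloaded against overloaded muscle the difference was -0.28 ± 0.051 for Uqcrfs1 and -0.062 ± 0.051 for Cyc1. The core proteins Uqcrc1 and Uqcrc2 were nearer to Uqcrfs1 there, with -0.21 and -0.25. Uqcrq was read from 1 dim spot, with levels between -0.62 and -0.18. It had -0.41 ± 0.097 in overloaded against normal and -0.38 ± 0.094 in regenerated overloaded against regenerated muscle.

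Complex IV, cytochrome c oxidase, was the least lowered complex relative to like-signal genes in overloaded against normal muscle. The medians of its 16 genes were -0.23, -0.26, -0.13 and -0.089, or -0.042, -0.015, -0.086 and -0.12 relative to them. Under cyclic loess its medians in regenerated and in overloaded against normal muscle were above 0 (0.0071 and 0.032), with 5 of 16 genes below 0 in each, and the second was 0.027 above the like-signal median. Its genes also spread the most, from -0.47 to 0.13 in overloaded against normal muscle. Cox5a, a subunit with no isoform in mammals, was lowest there: it read 5.86 in regenerated overloaded, 5.95 in overloaded, 6.15 in regenerated and 6.42 in normal muscle, and overloaded against normal muscle differed by -0.47 ± 0.053. Cox7b, with 10 spots, had -0.40, and Cox7c, with 1 spot, -0.14 ± 0.075, which was 0.070 under quantile normalization and 0.078 under cyclic loess. Cox6c-ps1, the pseudogene, shares sequence with Cox6c and its signal cannot be assigned to it alone; the pair had -0.37 and -0.22 in regenerated against normal muscle.

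The isoform pairs of complex IV accounted for part of that spread. In 3 pairs the form with the lower signal had the higher overload difference in uninjured muscle. For Cox6a and Cox8 that form is the widely expressed one, but for Cox4 it is the restricted one. The Cox6b and Cox7a2 pairs had gaps of only 0.054 and 0.0014 there. Among other genes the median in that comparison also varied with signal. It was -0.036 at log2 levels below 0 and -0.27 in each band from 5 upwards. Cox4i2, an isoform known from lung and oxygen-sensing cells, was dim and read -0.018 in regenerated overloaded, 0.071 in overloaded, -0.073 in regenerated and -0.061 in normal muscle. Cox4i1, its widespread partner, read 7.29, 7.36, 7.44 and 7.70. The first was almost level across the arrays and the second followed the rest of the set. That difference (overloaded against normal) was 0.13 for Cox4i2 and -0.33 for Cox4i1, which was 0.017 under cyclic loess, a gap of 0.47 ± 0.084 that lay between 0.17 and 0.47 over the scalings. Because Cox4i2 is dim, its difference was also set against the 500 genes nearest in signal, and was 0.24 above their median.

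Cox6a1, the widely expressed form, read 5.91 in regenerated overloaded, 5.83 in overloaded, 5.82 in regenerated and 5.96 in normal muscle. Cox6a2, the heart and muscle form, read 8.37, 8.33, 8.44 and 8.66. Both were highest in normal muscle with this scaling, but neither was under every scaling: in overloaded against normal muscle the difference reached 0.17 for Cox6a1 and 0.046 for Cox6a2. Cox6a1 minus Cox6a2 was 0.21 ± 0.075 in overloaded against normal and 0.16 ± 0.073 in regenerated overloaded against regenerated muscle, and above 0 under each scaling (0.12 to 0.21 and 0.13 to 0.19). Cox8a, the widely expressed form with 10 spots, minus Cox8b, the muscle form, gave 0.17 ± 0.058 and 0.20 ± 0.057 in these comparisons, between 0.058 and 0.21 and between 0.075 and 0.24 over the scalings. Both pairs had smaller gaps in regenerated against normal muscle, 0.086 ± 0.075 and 0.078 ± 0.058, and the gap of Cox8a over Cox8b there changed sign over the scalings (-0.020 to 0.078).

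**Figure D3:**
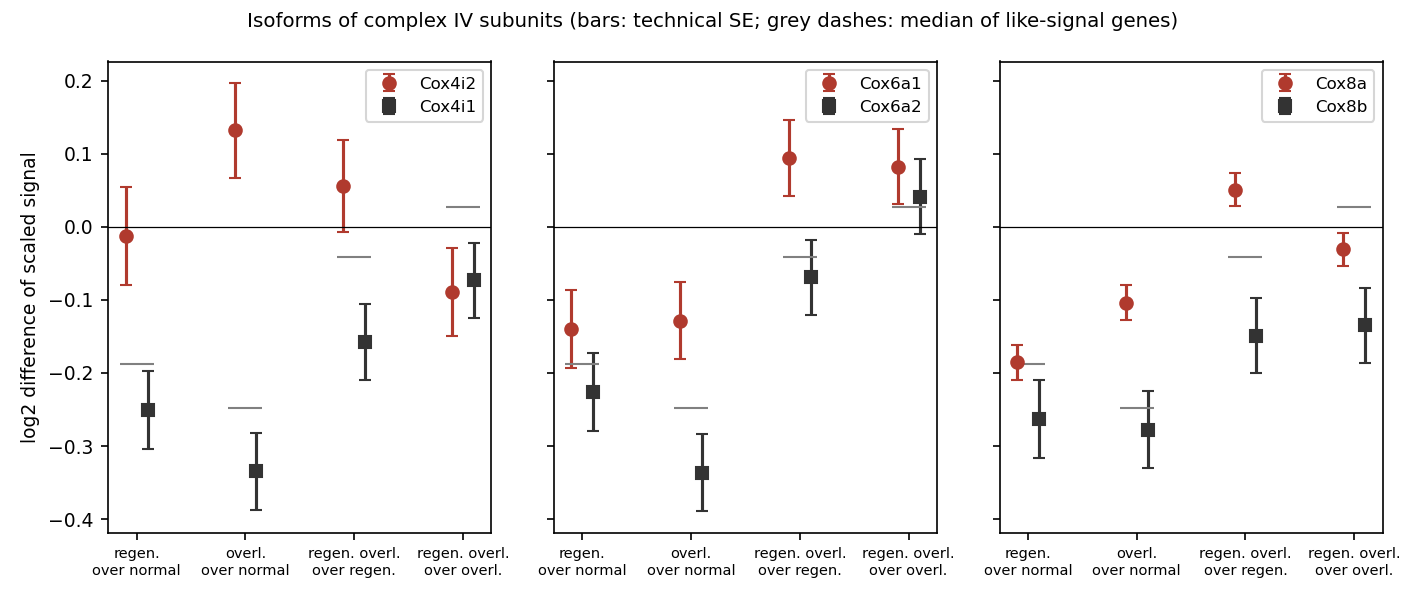
Log2 difference (vertical axis) of 3 isoform pairs of complex IV in the 4 comparisons (horizontal axis). Circles are Cox4i2, Cox6a1 and Cox8a, squares Cox4i1, Cox6a2 and Cox8b, bars the technical SE, and grey dashes the median of like-signal genes; the circles lie above the squares in both overload comparisons.

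The other pairs gave smaller or less steady gaps. Cox6b2, a testis-type form, minus Cox6b1, both on 1 spot, was 0.14 ± 0.11 in regenerated against normal muscle and within 1 technical SE of 0 in the other 3 comparisons. Cox7a2l, a factor that joins complexes III and IV into supercomplexes, minus Cox7a2 was 0.16 ± 0.073 in regenerated overloaded against overloaded muscle and 0.0014 ± 0.075 in overloaded against normal muscle. The muscle form Cox7a1 was not matched to a probe, and neither were Atp5mc3, Ndufa4l2, Ndufa3, Ndufa7, Ndufa8 and Ndufs6, so these are not analysed here.

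Complex V, the ATP synthase, had medians of -0.27, -0.33, -0.17 and -0.089 over 16 genes. Atp5f1b, the catalytic beta subunit, was read from 10 spots. It had levels of 4.27 in regenerated overloaded, 4.54 in overloaded, 4.68 in regenerated and 4.99 in normal muscle, lowest in regenerated overloaded muscle by several technical SE. Its differences from normal muscle were -0.31 ± 0.024 in regenerated and -0.44 ± 0.024 in overloaded muscle. In regenerated overloaded muscle they were -0.41 ± 0.023 against regenerated and -0.27 ± 0.023 against overloaded muscle. Relative to like-signal genes they were -0.12, -0.20, -0.37 and -0.30, and over the scalings the last 2 stayed at -0.37 and between -0.30 and -0.29. Atp5f1a, the alpha subunit that alternates with it in the ring, read 7.92, 8.05, 8.10 and 8.38 in regenerated overloaded, overloaded, regenerated and normal muscle. It had -0.18 ± 0.052 and -0.13 ± 0.051 in the comparisons of regenerated overloaded with regenerated and with overloaded muscle. The 2 partners were thus lower to different degrees.

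Atp5if1, the inhibitor that stops ATP synthase from running backwards when the membrane potential collapses, went against most of the set in the comparisons with regenerated overloaded muscle on top. It read 4.48 in regenerated overloaded, 4.27 in overloaded, 4.24 in regenerated and 4.54 in normal muscle. With this scaling overloaded and regenerated muscle were thus both below normal, while regenerated overloaded muscle was close to it. Its difference was 0.24 ± 0.052 (1.18-fold higher) in regenerated overloaded against regenerated muscle and 0.22 ± 0.051 (1.16-fold higher) against overloaded muscle, the highest of the 85 genes in both. Over the scalings these lay between 0.18 and 0.33 and between 0.18 and 0.24. In regenerated against normal and overloaded against normal muscle it had -0.29 ± 0.053 and -0.27 ± 0.053. The choice of scaling moved the first from -0.38 to -0.10 and the second from -0.38 to -0.022. After subtraction of the like-signal median they became -0.10 and -0.021. The drop in overloaded muscle was thus about that of like-signal genes (-0.25). The gene was read from 1 probe with 2 spots.

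The c-ring of ATP synthase is built from 1 mature protein encoded by several genes that differ in their targeting peptide. Atp5mc1 read 7.02 in regenerated overloaded, 7.19 in overloaded, 7.30 in regenerated and 7.63 in normal muscle. Atp5mc2 read 6.89, 6.95, 7.0 and 7.26 in those groups. The difference of Atp5mc1 minus that of Atp5mc2 was below 0 in all 4 comparisons, at -0.087 ± 0.075, -0.14 ± 0.075, -0.16 ± 0.073 and -0.11 ± 0.073, and under each scaling. Of the 4, only the gap in regenerated overloaded against regenerated muscle exceeded 2 technical SE.

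The overload difference was compared gene by gene with and without earlier injury, since these 2 comparisons share no array. Across the 85 genes the difference in overloaded against normal muscle and that in regenerated overloaded against regenerated muscle ran together, with a Pearson correlation of 0.69 and a Spearman correlation of 0.73. Genes of like signal gave 0.75 and 0.73. These are descriptions across genes, which share the same 4 arrays and are not independent. Overload differences were more negative in uninjured muscle for 81 of 85 genes and for 1807 of 2055 like-signal genes. The difference of differences (the overload difference after injury minus that without) had a median of 0.15, against 0.20 in like-signal genes, and turned negative under quantile normalization (-0.050) and cyclic loess (-0.056). Relative to like-signal genes it was -0.045, and stayed below 0 under each setting tried (-0.079 to -0.019).

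**Figure D4:**
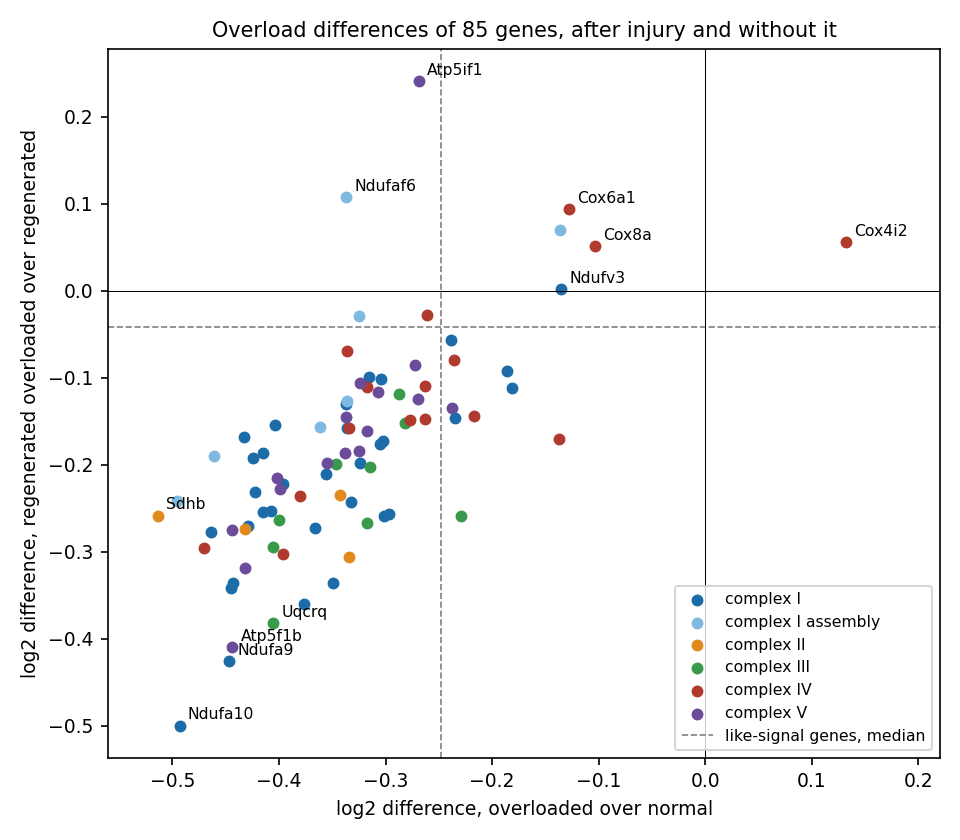
Log2 difference in regenerated overloaded over regenerated muscle (vertical axis) against that in overloaded over normal muscle (horizontal axis) for the 85 genes, coloured by complex, with dashed lines at the medians of like-signal genes. Most points lie below and left of the dashed lines. With this scaling Atp5if1, Ndufaf6, Ndufaf7, Cox6a1, Cox8a and, by 0.0017, Ndufv3 lie above 0 on the vertical axis alone, and Cox4i2 lies above 0 on both.

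Other mitochondrial gene lists ran in the same direction. In the order used for the complexes (regenerated and overloaded muscle, each against normal, then regenerated overloaded muscle against regenerated and against overloaded), the medians of 16 TCA cycle genes were -0.20, -0.40, -0.34 and -0.15, and 16, 16, 16 and 15 of them were below 0. The 15 mobile carriers and exchangers, such as cytochrome c and the ADP/ATP carriers, had -0.31, -0.41, -0.24 and -0.13, with 15 of 15 below 0 each time. The 27 assembly factors of complexes II to V had -0.26, -0.35, -0.22 and -0.10. Mitochondrial ribosomal proteins, 67 genes, had -0.27, -0.34, -0.11 and -0.099, and 20 import genes -0.28, -0.40, -0.13 and -0.078. Fatty acid oxidation genes, which feed electrons into the chain, had -0.21, -0.31, -0.38 and -0.24, with 15 of 15 below 0 each time. In overloaded against normal muscle 2 genes each among the assembly factors, the mitochondrial ribosomal proteins and the import genes were lower by 1.5-fold or more, where 3.28% of all genes were.

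Lists outside the mitochondria are given for scale. Of 12 glycolysis genes the medians were -0.19, -0.38, -0.25 and -0.0024. Cytosolic ribosomal proteins, 70 genes, were brighter at the median than the respiratory genes (log2 level 6.59, against 5.43 to 5.90 over the arrays). They had -0.14, -0.22, 0.014 and 0.085, above the like-signal median each time. The first median of the glycolysis genes and the first 2 of the ribosomal proteins were above 0 under quantile normalization and cyclic loess. Muscle fibre markers had -0.28, -0.36, -0.25 and -0.14, close to the respiratory genes. Relative to genes of their own signal, fibre markers had -0.095, -0.095, -0.21 and -0.19, and the respiratory genes -0.064, -0.088, -0.15 and -0.13. Fibroblast markers had 0.74, 1.21, 0.79 and 0.32, with 7, 7, 7 and 5 of 7 above 0, macrophage markers 0.61, 0.79, 0.27 and 0.076, and endothelial markers 0.24, 0.20, -0.057 and -0.21. Adipocyte markers, 4 genes, had 0.94, -0.15, -0.38 and 0.59, with 4 of 4 above 0 in both comparisons of injured with uninjured muscle, where their median was above that of the fibroblast markers (in regenerated against normal muscle not with normexp background correction, 0.59 against 0.70). The part of fewer fibres, or of more of these other cells, in the lower respiratory signal was not tested.

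**Figure D5:**
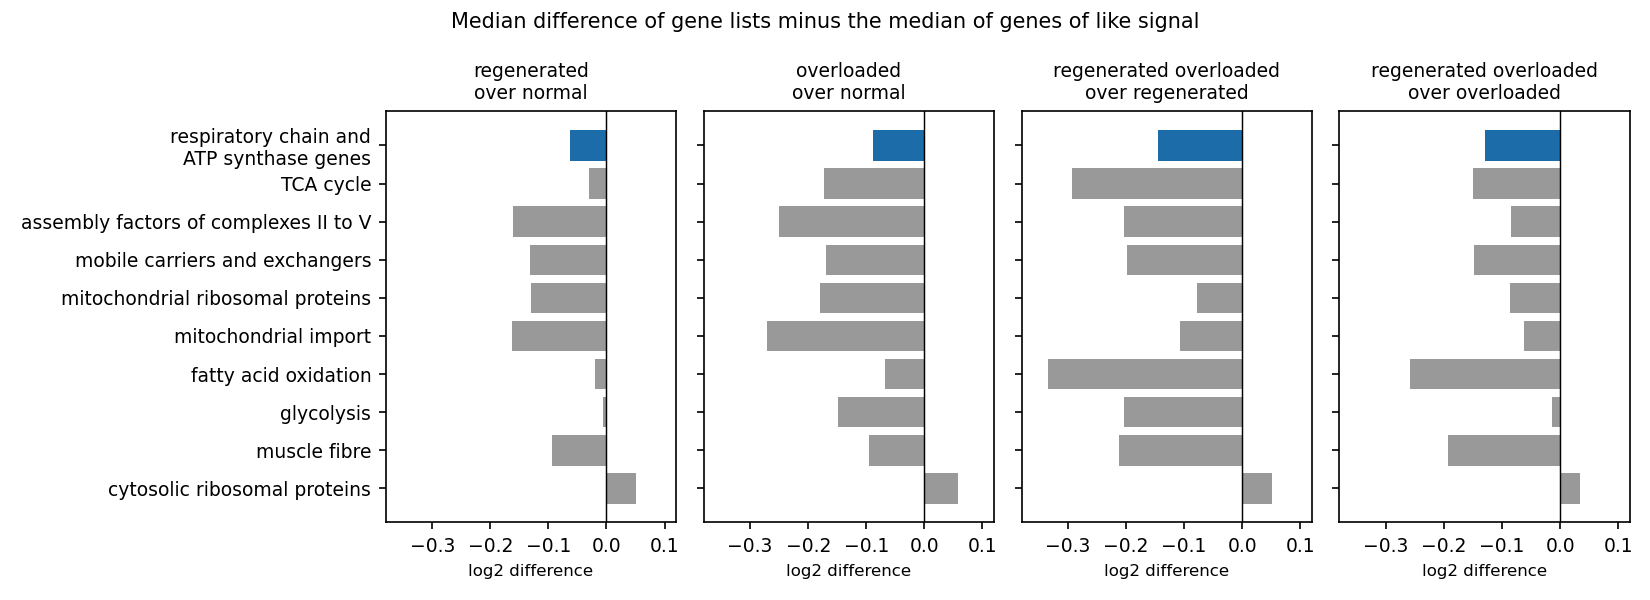
Median log2 difference of 10 gene lists after subtracting the median of genes of like signal (horizontal axis), in the 4 comparisons. Bars start at 0; the respiratory chain and ATP synthase genes are in blue, every mitochondrial list lies below 0 in each panel, and cytosolic ribosomal proteins lie above it.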

How the data were processed

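Pooled RNA of 6 soleus muscles a group was measured on 4 one-colour Agilent arrays (Cy3), 1 per group. The deposited scanner files give each spot's processed signal as an intensity, background-subtracted by Agilent Feature Extraction (version 11.5.1.1 per the file headers, 10.10.1.1 per the submitters' processing notes). Flags for spots above background or outlying are deposited as other values, per the file headers, and the authors' deposited series table holds the intensity times 1 constant per array.

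Outlier spots were left out, signals were divided by the 75th percentile of their array and log2 taken, spots were averaged per probe, and a gene was read from its brightest probe, required above background (at least 50% of its spots) on all 4 arrays. Accessions were matched to symbols in a RefSeq table of GRCr8; the files' build is rn4, so no probe coordinates are given. Technical SE used the spot SD pooled in 20 signal bins. The steps were tested on simulated data (Python 3.11.15, limma 3.58.1 in R 4.3.3).

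Named genes are, per comparison, the 5 highest and 5 lowest members, isoform pairs, core and catalytic subunits, members not above background and members whose probes disagree; Cox7b, Ndufa6 and individual probe readings were added after their values were seen. A gene under this rule is not reported here. The members and lists were chosen with earlier results of these data known. The number of arrays limits the precision. Alternatives tried were other scalings (quantile, array median, the authors' constant, cyclic loess), normexp background correction, other filters on dim probes, the mean over probes, and leaving out outer rows or probes printed once.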

Additional observations from a re-analysis of the deposited data

Results flagged for a closer look

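With 1 array per group these differences between comparisons were not tested. Atp5if1 had opposite overload differences with and without earlier injury: 0.24 in regenerated overloaded against regenerated muscle and -0.27 in overloaded against normal muscle, 0.51 apart. Its differences with injury were opposite too, 0.22 in regenerated overloaded against overloaded muscle and -0.29 in regenerated against normal muscle, again 0.51 apart, since the same 4 arrays enter. Cox8a had overload differences of 0.051 in regenerated overloaded against regenerated muscle and -0.10 in overloaded against normal muscle, 0.15 apart. The median gap of like-signal genes was 0.20, with an SD over these genes of 0.19. The gap of Atp5if1 was 0.31 above that median and that of Cox8a 0.045 below it. Atp5if1 was named for its extreme values in these data, so its place among the genes is no test. Relative to like-signal genes its overload differences were 0.28 after injury and -0.021 without. The sign of the Cox8a differences changed with the scaling.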

How the results depend on the processing

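The median difference of the 85 genes was below 0 in all 4 comparisons under every setting tried, but its size against normal muscle depended on the scaling. In regenerated against normal muscle (main value -0.25) it was -0.060 with quantile normalization, -0.34 with array median scaling, -0.12 with the authors' factor and -0.028 with cyclic loess. In overloaded against normal muscle (-0.34) it was -0.077, -0.45, -0.16 and -0.035 in the same order. In regenerated overloaded against regenerated muscle (-0.19) it was -0.12 with quantile normalization, -0.25 with array median scaling and -0.086 with cyclic loess. The median difference of differences (0.15) was -0.050 with quantile normalization, -0.056 with cyclic loess and 0.025 with the authors' factor. The cause was not tested. In regenerated and overloaded against normal muscle, the authors' factor moved the median of all genes by 0.13 and 0.17. Array median scaling moved it by -0.086 and -0.11, quantile normalization by 0.051 and 0.045, and cyclic loess by 0.062 and 0.066. Under quantile normalization and cyclic loess the medians of the 85 genes moved further than that of all genes. Values relative to like-signal genes were steadier over the settings: -0.071 to -0.046, -0.10 to -0.040, -0.15 to -0.13 and -0.16 to -0.11 in the order of the report.

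Genes past 1.5-fold in regenerated against normal muscle (1 in the main setting) numbered 0 with quantile normalization, the authors' factor and cyclic loess, and 2 with no filter on dim probes. In overloaded against normal muscle (0) they numbered 3 with array median scaling and 1 each with the mean over probes, no filter on dim probes and without probes printed once, and in regenerated overloaded against regenerated muscle (0) 1 without probes printed once. Of 225 recomputed medians and counts of the set, 202 kept their direction and stayed within the spot error (counts: within 1.5 times), 21 moved further and 2 reversed. Of 2124 recomputed differences of single genes, 501 moved by more than the spot error. Some named genes changed from below to above 0 in overloaded against normal muscle under both cyclic loess and quantile normalization. They were Cox6a1, Cox6c-ps1, Cox8a, Cox8b, Cox7a2, Cox7c, Ndufa4, Ndufv3 and the complex III core protein Uqcrc2. The like-signal comparison, the runs without Cox6c-ps1 and Ndufa10l1 or without members under the 75th percentile, and the cytosolic ribosomal list were added after seeing the data. No paired analysis was possible because each group has 1 array of mixed RNA and the labels carry no replicate numbers. Dim probes limit what can be said of Cox4i2, Uqcrq, Ndufaf1 and Ndufaf7.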
